A study of Caenorhabditis elegans with 36 samples.

Results

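Fatty acids are broken down for energy and for signals by a chain of enzymes that this work followed through the worm Caenorhabditis elegans under 7 treatments. The genes were chosen by name: every gene of the classes acs-, cpt-, acdh-, acox-, ech-, hacd- and acaa- with a number, together with maoc-1, dhs-28, kat-1 and daf-22. This gave 64 of the 27782 genes in the table, here called the members. Acyl-CoA synthetases first activate a fatty acid by joining it to coenzyme A, and carnitine palmitoyltransferases then pass it into the mitochondrion. Each turn of beta-oxidation removes a short piece in the order oxidation, hydration, second oxidation and thiolysis. Mitochondria use acyl-CoA dehydrogenases for the first oxidation and peroxisomes use acyl-CoA oxidases. In C. elegans the peroxisomal enzymes are best known for shortening the side chains of ascarosides, the pheromones of the worm. By class, 10 members were placed in the peroxisome and 25 in the mitochondrion, while 22 acs- genes and 7 ech- genes were given no compartment. These placements came from enzyme class and not from these data.

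RNA was sequenced from whole day 1 adults of the wild-type strain N2, grown from the L1 stage at 20 °C, with about 3000 worms per sample. All plates held 10 µM 5-fluorouracil (5-FU), and all worms were fed Escherichia coli HT115 with the empty RNAi vector, except that the dhod-1 RNAi group was fed bacteria against dhod-1. The 36 libraries fall into 9 groups, each of 4 biological replicates. In batch 1 the drugs were 31.5 µM terbinafine, 250 µM miglustat, 500 µM BAY2402234 and 500 µM brequinar, beside dhod-1 RNAi given with DMSO, and DMSO alone, the solvent control. In batch 2 they were 50 µM doxycycline and 250 µM teriflunomide, beside a separate DMSO group. Terbinafine inhibits squalene epoxidase and miglustat glucosylceramide synthase, doxycycline blocks mitochondrial translation, and BAY2402234, brequinar and teriflunomide inhibit dihydroorotate dehydrogenase, the enzyme that dhod-1 encodes. Every treatment was set against the DMSO group of the same batch, so comparisons within a batch share their controls. Levels are in CPM, counts scaled to library size with TMM factors within a batch, and differences are on the log2 scale, each with a standard error (SE). Rose, fell and changed are used only of genes whose edgeR p stayed below 0.05 after Benjamini-Hochberg adjustment across every gene tested.

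Total counts per library lay between 19253276 and 20455600, and 62 members in batch 1 and all 64 in batch 2 passed the filter on low counts. acs-9 and cpt-3 did not pass in batch 1. dhod-1 itself was lower with dhod-1 RNAi, with 58.1, 78.5, 68.2 and 70.7 CPM, against 82.6, 79.8, 90.3 and 81.3 CPM in DMSO (-0.28 ± 0.08 SE, adjusted p = 0.00482 in edgeR). Replicates 3 and 4 of dhod-1 RNAi stood apart from replicates 1 and 2, and replicate 1 of the batch 2 DMSO group stood apart from the other 3. Those 3 were not uniform either. In batch 2 DMSO replicates 1, 2, 3 and 4, acdh-1 had 561, 337, 563 and 177 CPM and ech-6 had 303, 138, 280 and 111 CPM. Leaving out replicate 1 therefore does not make this group even for every member. Tissue markers moved as well: the summed level of 8 germ line and oocyte genes was 647 to 882 CPM with doxycycline, against 4385 to 5794 CPM in DMSO. The sum of 6 intestine markers was 2633 to 2929 CPM with doxycycline and 1695 to 2047 CPM with teriflunomide, against 418 to 820.1 CPM in DMSO, and no intestine or germ line marker was at 0. With teriflunomide 4 of the 6 intestine markers rose and 0 of the 8 germ line markers changed by edgeR, 0 by DESeq2 and 0 at an unadjusted p below 0.05. With dhod-1 RNAi all 8 germ line markers fell and 3 intestine markers rose, while with BAY2402234 7 germ line markers fell, 4 intestine markers rose and 1, pho-1, fell. Of all genes, 38.8% changed with teriflunomide, 61.4% with dhod-1 RNAi and 46.8% with BAY2402234. The intestine sum with BAY2402234 was 499 to 779 CPM, which overlapped the 594 to 714 CPM in DMSO, and with dhod-1 RNAi it was 697 to 969 CPM. The part of these shifts in the members' changes was not tested. In whole-worm RNA, fewer cells of a type and less RNA per cell cannot be told apart.

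Levels between genes are compared here as CPM per kb of exons in the batch 1 DMSO libraries. The highest member was acdh-1, an acyl-CoA dehydrogenase of the propionate shunt, at 339 ± 24.9 CPM per kb (SD, n = 4). Next came acs-13 at 253 ± 11.7, ech-6, an enoyl-CoA hydratase of the same shunt, at 252 ± 18, and acs-19 at 234 ± 19.1 CPM per kb, which lay within their spread of each other. The mitochondrial thiolase kat-1 stood at 135 ± 2.40 CPM per kb and cpt-1, the outer carnitine palmitoyltransferase, at 126 ± 3.45 CPM per kb. No peroxisomal member was as high as these: dhs-28 led them at 52.5 ± 6.18 CPM per kb, followed by daf-22 at 32.4 ± 5.06 and maoc-1 at 31.0 ± 3.53 CPM per kb, the last pair within their spread. The acyl-CoA oxidases lay between 3.0 ± 0.665 CPM per kb for acox-1.2 and 10.1 ± 1.15 CPM per kb for acox-1.6. Some mitochondrial members, such as acdh-2 at 0.922 ± 0.0871 CPM per kb, lay below every peroxisomal member. At the low end were acs-9 at 0.143 ± 0.0630 and cpt-3 at 0.0910 ± 0.0666 CPM per kb.

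**Figure D1:**
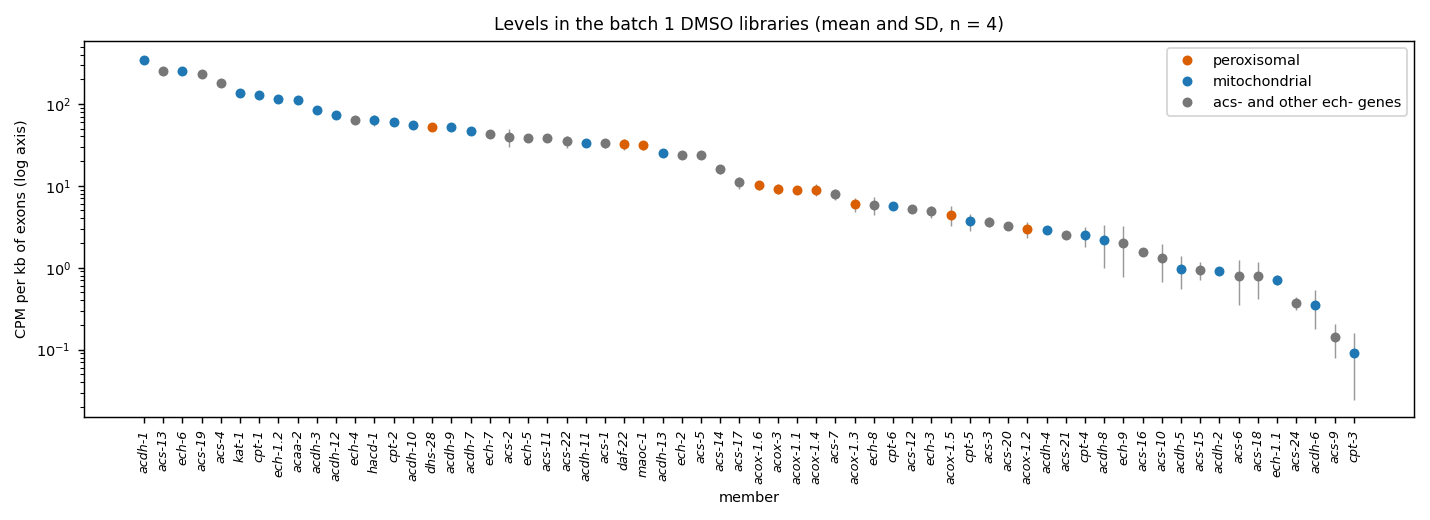
Level of each of the 64 members in the 4 batch 1 DMSO libraries, as mean CPM per kb of exons on a log axis with SD bars (n = 4), in order of level and coloured by compartment. acdh-1 stands first at 339 ± 24.9 CPM per kb, and no acyl-CoA oxidase is above 10.1 ± 1.15 CPM per kb.

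The share of members that changed is read against the share of all genes that changed in the same comparison. With terbinafine, 4 of 62 members rose and 0 fell, where 0.898% of all genes changed, 0.68% upward and 0.218% downward. With miglustat, 5 of 62 members rose and 0 fell, where 0.581% of all genes changed, 0.436% upward and 0.145% downward. With BAY2402234, 19 of 62 members rose and 17 fell, where 46.8% of all genes changed, 23.2% upward and 23.6% downward. With brequinar, 8 of 62 members rose and 10 fell, where 15.7% of all genes changed, 5.03% upward and 10.6% downward. With dhod-1 RNAi, 25 of 62 members rose and 15 fell, where 61.4% of all genes changed, 31.3% upward and 30.1% downward. With doxycycline, 37 of 64 members rose and 11 fell, where 84.9% of all genes changed, 44.8% upward and 40.2% downward. With teriflunomide, 28 of 64 members rose and 10 fell, where 38.8% of all genes changed, 19% upward and 19.7% downward. The shares of members changed were 6.45% with terbinafine, 8.06% with miglustat, 58.1% with BAY2402234, 29.0% with brequinar, 64.5% with dhod-1 RNAi, 75.0% with doxycycline and 59.4% with teriflunomide. For dhod-1 RNAi the members' share was near that of all genes, and for doxycycline it was below it. The BAY2402234 split of 19 higher and 17 lower became 27 and 13 without TMM scaling, where the median log2 fold change of all genes was 0.27, in place of 0.10 with TMM. The median of all genes with doxycycline was 0.23 and 43 of the 64 members lay above it, among them 9 of the 10 peroxisomal and 14 of the 25 mitochondrial members.

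The peroxisomal chain had its highest median log2 fold change with teriflunomide. Of the 10 peroxisomal members, 7 rose and 2 fell, with a median log2 fold change of 1.90, beside -0.02 over all genes. daf-22 (WBGene00013284, chromosome II, 12423518 to 12425694, build WBcel235), the thiolase of the last step, had 329, 359, 369.9 and 369.9 CPM with teriflunomide, against 69.5, 63.9, 67.0 and 59.0 CPM in DMSO. All 4 teriflunomide libraries lay far above the DMSO libraries, and daf-22 rose by 2.46 ± 0.07 SE (adjusted p = 1.12e-09 in edgeR) on the log2 scale. dhs-28 (WBGene00000991, chromosome X, 6818438 to 6820080), the hydroxyacyl-CoA dehydrogenase before it, had 357, 392, 401 and 363 CPM with teriflunomide, against 103, 113, 109.6 and 102 CPM in DMSO. It rose by 1.82 ± 0.06 SE (adjusted p = 1.9e-09 in edgeR), again with no overlap between groups. maoc-1 (WBGene00017123, chromosome II, 7196276 to 7197495), the enoyl-CoA hydratase of the chain, had 190.2, 193, 194 and 186 CPM with teriflunomide, against 52.7, 70.8, 63.6 and 64.9 CPM in DMSO. Its rise was 1.6 ± 0.08 SE (adjusted p = 6.7e-08 in edgeR), and the groups stood apart. dhs-28 and maoc-1 share 76 and 105 exonic bases with genes on the other strand, and whether counting used strand is not given in the sources used here.

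The acyl-CoA oxidases, which carry out the first step, did not all move one way with teriflunomide. acox-1.1 (WBGene00008564, chromosome I, 12938555 to 12942227) had 125, 153, 154 and 135 CPM with teriflunomide, against 47.3, 29.5, 28.8 and 24.8 CPM in DMSO. It rose by 2.12 ± 0.17 SE (adjusted p = 5.28e-06 in edgeR), with no overlap, as did acox-3 by 1.97 ± 0.12 SE (adjusted p = 3.81e-07 in edgeR) and acox-1.6 by 2.09 ± 0.17 SE (adjusted p = 5.6e-06 in edgeR). acox-1.4 had 31.8, 57.6, 46.8 and 53.8 CPM with teriflunomide, against 24.2, 1.64, 6.68 and 2.07 CPM in DMSO. Its DMSO libraries were widely spread, with replicate 1 high, and the rise was 2.46 ± 0.68 SE (adjusted p = 0.0151 in edgeR), or 3.79 (adjusted p = 3.21e-05 in edgeR) without that DMSO library. acox-1.3 had 1.22, 1.57, 1.00 and 1.31 CPM with teriflunomide, against 11.2, 3.04, 8.48 and 2.36 CPM in DMSO. acox-1.3 was lower in every teriflunomide library, at a log2 fold change of -2.29 ± 0.44 SE (adjusted p = 0.00196 in edgeR), and acox-1.5 fell too, at -1.31 ± 0.32 SE (adjusted p = 0.00767 in edgeR), with overlapping groups. acox-1.1, acox-1.2, acox-1.3 and acox-1.4 lie next to each other on chromosome I, between 12938555 and 12954003. Reads that fit more than 1 of these related genes could have been split or lost in counting, which was not tested. The summed level of the 10 peroxisomal members was 1258 to 1407 CPM with teriflunomide, against 344 to 391 CPM in DMSO.

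**Figure D2:**
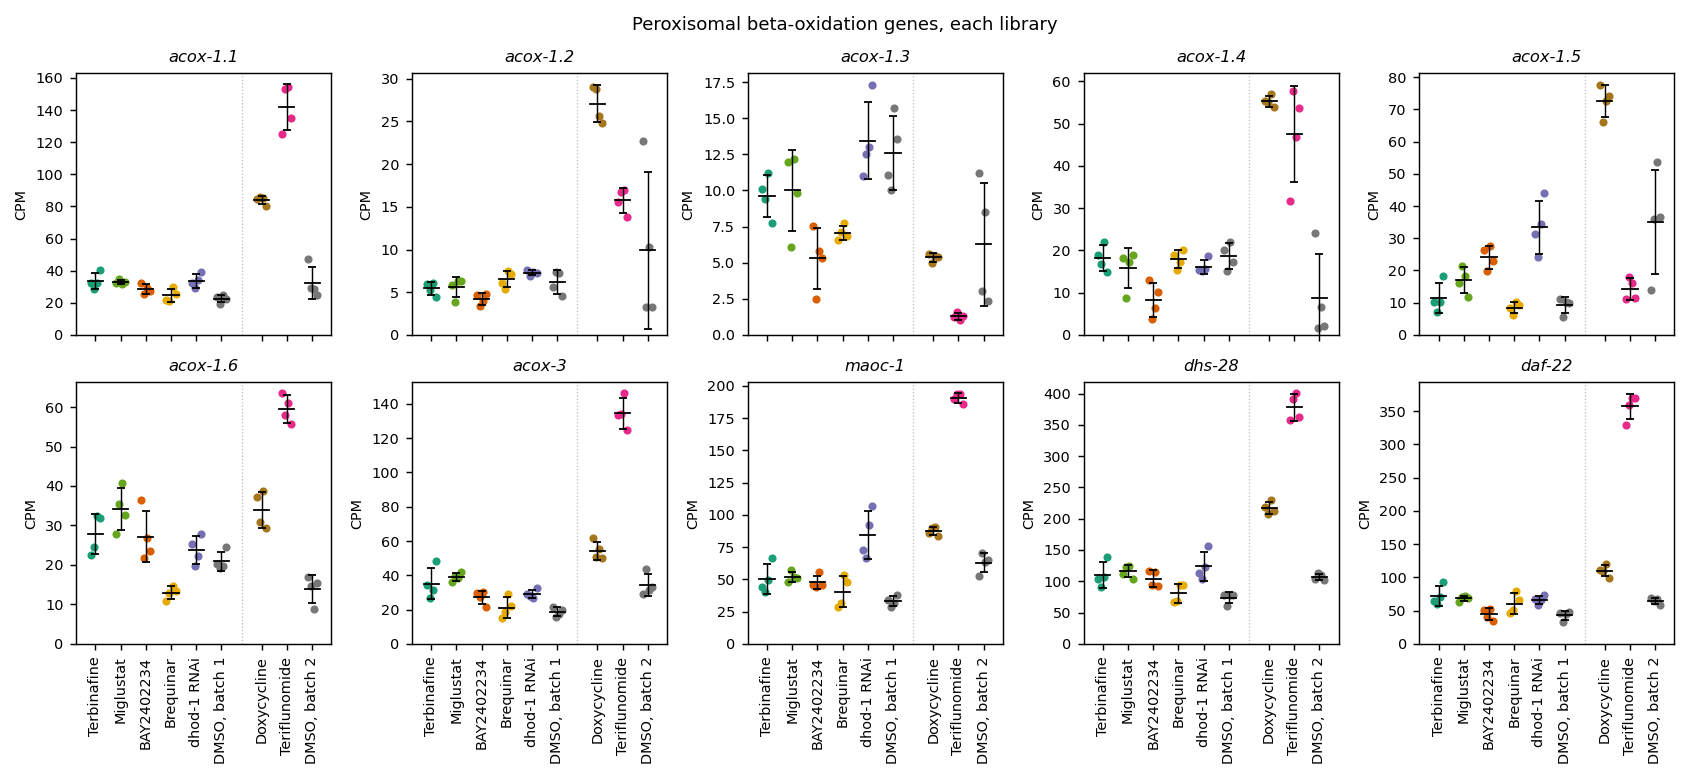
CPM of the 10 peroxisomal members in each of the 36 libraries, by group, with the mean and SD of each group (n = 4); a dotted line parts batch 1 from batch 2. The 4 teriflunomide libraries have 329, 359, 369.9 and 369.9 CPM of daf-22, against 69.5, 63.9, 67.0 and 59.0 CPM in the DMSO libraries, and acox-1.3 and acox-1.5 go the other way.

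Doxycycline raised 9 of the 10 peroxisomal members and lowered none, with a median log2 fold change of 1.04, beside 0.23 over all genes. The share changed was 90%, near the 84.9% of all genes (44.8% upward and 40.2% downward). dhs-28 had 218, 207, 230.4 and 212 CPM with doxycycline, against 103, 113, 109.6 and 102 CPM in DMSO, and rose by 1.02 ± 0.06 SE (adjusted p = 5.84e-09 in edgeR). daf-22 had 111, 109, 119 and 98.9 CPM with doxycycline, against 69.5, 63.9, 67.0 and 59.0 CPM in DMSO, and rose by 0.76 ± 0.07 SE (adjusted p = 8.07e-07 in edgeR). Both stood clear of the DMSO libraries. acox-1.5 had 77.6, 66, 72.7 and 74.1 CPM with doxycycline and 11.2, 18.1, 16.0 and 11.5 CPM with teriflunomide, against 14, 36, 53.7 and 36.6 CPM in DMSO. It rose with doxycycline by 1.05 ± 0.31 SE (adjusted p = 0.008 in edgeR), while it fell with teriflunomide. The member that did not pass was acox-1.3, at -0.22 ± 0.41 SE (adjusted p = 0.618 in edgeR). acox-1.4 rose by 2.68 ± 0.68 SE (adjusted p = 0.00342 in edgeR), and by 4.0 (adjusted p = 6.25e-06 in edgeR) without replicate 1 of the DMSO group.

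In batch 1, terbinafine and miglustat changed few genes, and peroxisomal members were among them. With terbinafine 3 rose and 0 fell, with a median log2 fold change of 0.49, and with miglustat 4 rose and 0 fell, with a median of 0.65. The medians over all genes were 0.01 and 0.01. acox-3 had 34.4, 27.0, 31.2 and 48.1 CPM with terbinafine and 36, 39.7, 38.1 and 42.0 CPM with miglustat, against 21.8, 15.9, 17.7 and 19.9 CPM in DMSO. Both groups lay wholly above DMSO, at 0.90 ± 0.17 SE (adjusted p = 0.00595 in edgeR) and 1.05 ± 0.17 SE (adjusted p = 0.00473 in edgeR). daf-22 had 64, 60.4, 69.9 and 93.3 CPM with terbinafine and 62.6, 70.1, 71.6 and 69.2 CPM with miglustat, against 45.8, 33.2, 45.2 and 48.4 CPM in DMSO. It rose with terbinafine, at 0.74 ± 0.16 SE (adjusted p = 0.0243 in edgeR), and missed the threshold with miglustat, at 0.66 ± 0.16 SE (adjusted p = 0.0634 in edgeR). dhs-28 was the reverse, at 0.65 ± 0.14 SE (adjusted p = 0.0346 in edgeR) with miglustat and 0.57 ± 0.14 SE (adjusted p = 0.0573 in edgeR) with terbinafine, though the difference between these drugs did not pass (-0.07 ± 0.14 SE, adjusted p = 0.862 in edgeR). Both missed calls passed by DESeq2 and with the replicate block, that of daf-22 also with the compared groups alone, and that of dhs-28 also with DESeq2 size factors in edgeR or without Terbinafine replicate 2. acox-1.1 rose in both, at 0.56 ± 0.12 SE (adjusted p = 0.0187 in edgeR) and 0.54 ± 0.12 SE (adjusted p = 0.0346 in edgeR), and acox-1.6 rose with miglustat at 0.71 ± 0.16 SE (adjusted p = 0.0346 in edgeR). These calls were near the threshold. Without Miglustat replicate 2 or replicate 3, or without any of DMSO replicates 1, 2 and 3, or without TMM scaling or at a minimum count of 50, acox-3 was the member left with miglustat, and 2 members were left without Miglustat replicate 1 or DMSO replicate 4. With terbinafine, daf-22 lost its call without Terbinafine replicate 3 or 4 or DMSO replicate 1, 2 or 3 and with the compared groups alone, and acox-1.1 without Terbinafine replicate 4 or DMSO replicate 2 or 4. Without Terbinafine replicate 2, 7 members were called in place of 4. The sum over the 10 peroxisomal members was 309.8 to 465 CPM with terbinafine and 370.4 to 413 CPM with miglustat, against 216 to 276 CPM in DMSO.

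dhod-1 RNAi raised 6 peroxisomal members and lowered none, with a median of 0.60, beside -0.02 over all genes. The share changed was 60%, near the 61.4% of all genes (31.3% upward and 30.1% downward). maoc-1 had 72.5, 66.8, 92.0 and 107 CPM with dhod-1 RNAi, against 33.7, 28.7, 31.9 and 37.7 CPM in DMSO, and rose by 1.36 ± 0.18 SE (adjusted p = 2.35e-06 in edgeR). acox-1.5 had 31.3, 24.0, 34.3 and 44.0 CPM with dhod-1 RNAi, against 11.2, 5.66, 10.2 and 9.86 CPM in DMSO, and rose by 1.85 ± 0.26 SE (adjusted p = 3.52e-06 in edgeR). No dhod-1 RNAi library overlapped DMSO for either gene, and replicates 3 and 4 were the highest for both. Without those replicates the rises were 1.08 (adjusted p = 0.000528 in edgeR) for maoc-1 and 1.58 (adjusted p = 0.000458 in edgeR) for acox-1.5, while daf-22 no longer passed, at 0.56 (adjusted p = 0.0504 in edgeR). BAY2402234 split the oxidases: acox-1.5 rose by 1.38 ± 0.25 SE (adjusted p = 0.000285 in edgeR), while acox-1.3 fell, at -1.25 ± 0.25 SE (adjusted p = 0.000506 in edgeR), as did acox-1.4, at -1.16 ± 0.26 SE (adjusted p = 0.00135 in edgeR). Of the 10 members, 5 rose and 3 fell with BAY2402234, at a median of 0.36 beside 0.10 over all genes. With brequinar 1 rose and 2 fell, at a median of 0.09 beside 0.01: daf-22 rose, with overlapping groups, and acox-1.6 and acox-1.3 fell. The brequinar call of daf-22 was lost without brequinar replicate 3 or 4, and without any of the DMSO libraries, each left out alone. It was also lost with no filter on low counts and with the compared groups alone. The brequinar call of acox-1.3 was lost without brequinar replicate 4 or DMSO replicate 3 or 4. acox-1.6 had 10.8, 13, 14.8 and 13.3 CPM with brequinar, against 20.2, 19.3, 19.8 and 24.4 CPM in DMSO, all 4 brequinar libraries being lower (-0.69 ± 0.16 SE, adjusted p = 0.00593 in edgeR).

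Set beside the mitochondrial members, the peroxisomal members had the higher median log2 fold change in all 7 comparisons with DMSO. The peroxisomal and mitochondrial medians were 0.49 and 0.02 with terbinafine, 0.65 and 0.03 with miglustat, 0.36 and -0.18 with BAY2402234 and 0.09 and 0.07 with brequinar. They were 0.60 and 0.12 with dhod-1 RNAi, 1.04 and 0.29 with doxycycline and 1.90 and 0.17 with teriflunomide. The brequinar medians differed by 0.02, and that difference changed sign when libraries were left out in turn, lying between -0.09 and 0.12. Among mitochondrial members, 0 rose and 0 fell with terbinafine and with miglustat by edgeR, where 6 and 1 of the 24 tested had an unadjusted p below 0.05 and DESeq2 called 1 and 0. 5 rose and 10 fell with BAY2402234, 6 and 2 with brequinar, and 11 and 6 with dhod-1 RNAi. In batch 2, 12 rose and 6 fell with doxycycline, and 8 and 6 with teriflunomide. The shares of mitochondrial members changed were 62.5% with BAY2402234, 33.3% with brequinar, 70.8% with dhod-1 RNAi, 72% with doxycycline and 56% with teriflunomide. Peroxisomal shares were 80%, 30%, 60%, 90% and 90% in that order. Of all genes, 46.8%, 15.7%, 61.4%, 84.9% and 38.8% changed, so the doxycycline share of mitochondrial members was below that of all genes. The peroxisomal shares with dhod-1 RNAi and with doxycycline were near those of all genes. The 7 comparisons share 2 DMSO groups and so are not independent of each other. The summed level of mitochondrial members with teriflunomide overlapped that in DMSO, at 2578 to 2753 CPM, against 2298 to 3038 CPM in DMSO, and it was 1852 to 2043 CPM with BAY2402234, against 2586 to 2703 CPM in DMSO.

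**Figure D3:**
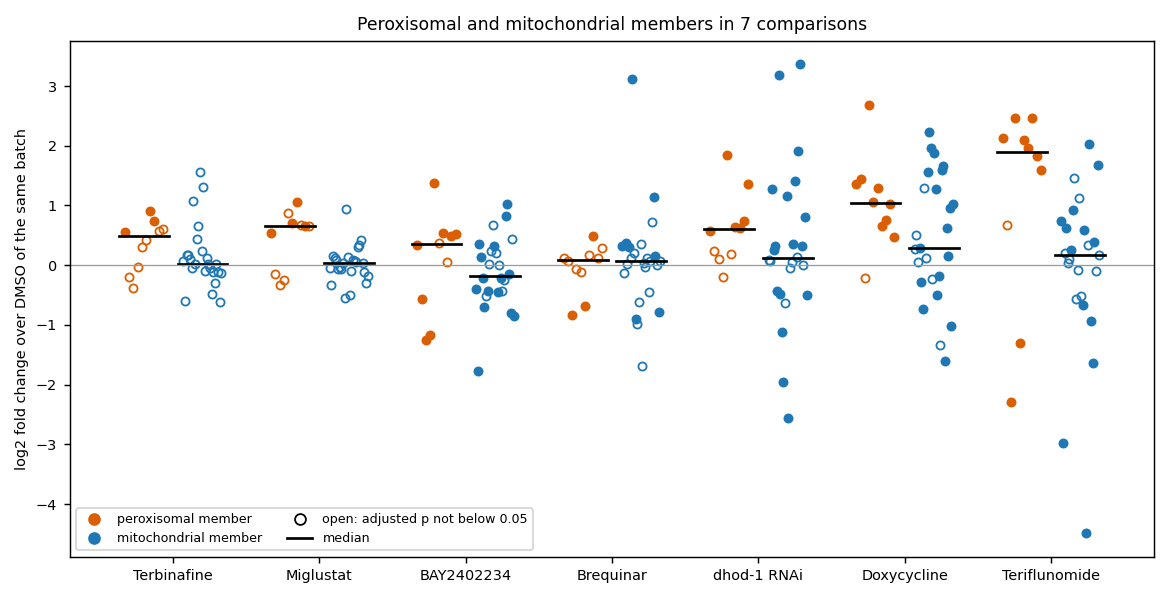
log2 fold change over the DMSO group of the same batch for each peroxisomal (orange) and mitochondrial (blue) member, with black lines at the medians; filled points passed an adjusted p of 0.05. The peroxisomal medians are 1.04 with doxycycline and 1.90 with teriflunomide, and acdh-2 in teriflunomide is not drawn because it had 0 counts, though it enters the median.

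Carnitine transfer brings long-chain acyl groups into mitochondria. cpt-1 (WBGene00012907, chromosome II, 12788244 to 12796452), the outer enzyme, had 282, 302, 304 and 332 CPM with doxycycline and 296, 257, 258 and 277 CPM with teriflunomide, against 309, 496, 423 and 493 CPM in DMSO. It fell in both, at -0.49 ± 0.13 SE (adjusted p = 0.00343 in edgeR) and -0.66 ± 0.13 SE (adjusted p = 0.00195 in edgeR), the doxycycline call being lost at a minimum count of 50, and DMSO replicate 1 overlapped the doxycycline libraries. In batch 1 no treatment changed cpt-1, its log2 fold changes lying between -0.03 for brequinar and 0.13 for terbinafine. cpt-2, the inner enzyme, rose with teriflunomide at 0.59 ± 0.06 SE (adjusted p = 1.98e-05 in edgeR) and with dhod-1 RNAi at 0.36 ± 0.07 SE (adjusted p = 0.000141 in edgeR), and fell with BAY2402234 at -0.22 ± 0.07 SE (adjusted p = 0.0143 in edgeR), a call lost without BAY2402234 replicate 1 or DMSO replicate 2, without TMM scaling, with no filter on low counts and at a minimum count of 50. With doxycycline cpt-2 also fell, at -0.19 ± 0.06 SE (adjusted p = 0.00858 in edgeR), all 4 libraries lying below DMSO, but the call was lost without TMM scaling and with the compared groups alone, and the value turned to 0.038 at a minimum count of 50. cpt-6, a less studied family member, had 32.6, 38.0, 60.7 and 71.6 CPM with dhod-1 RNAi, against 12.8, 14.5, 11.9 and 14.5 CPM in DMSO. It rose by 1.92 ± 0.25 SE (adjusted p = 2.02e-06 in edgeR) with no overlap, replicates 3 and 4 being highest, and by 1.4 (adjusted p = 0.000308 in edgeR) without them. In batch 2 cpt-6 fell, at -1.61 ± 0.17 SE (adjusted p = 2.24e-06 in edgeR) with doxycycline and -0.94 ± 0.16 SE (adjusted p = 0.00104 in edgeR) with teriflunomide. cpt-3 had 0.106, 0.324, 0.370 and 0.601 CPM with teriflunomide, against 0.802, 14.2, 4.01 and 12.9 CPM in DMSO, a log2 fold change of -4.49 ± 0.80 SE (adjusted p = 0.0012 in edgeR) in a gene with 26 counts over the 4 teriflunomide libraries.

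Some acyl-CoA dehydrogenases, which start each turn in the mitochondrion, fell steeply. acdh-1 (WBGene00016943, chromosome I, 6497436 to 6499560) had 32.4, 57.9, 21.4 and 95.9 CPM with teriflunomide, against 561, 337, 563 and 177 CPM in DMSO. Every teriflunomide library was below every DMSO library, at -2.98 ± 0.48 SE (adjusted p = 0.000762 in edgeR), although DMSO replicate 4 was low among its group. acdh-2 (WBGene00015894, chromosome II, 5544778 to 5547492), another acyl-CoA dehydrogenase, had 0 counts in all 4 teriflunomide libraries, against 27.1, 2.94, 26.1 and 1.38 CPM in DMSO. The DMSO replicates 1 and 3 were high and 2 and 4 low, and the 1138 DMSO counts make the gene at least 358-fold lower in CPM with teriflunomide, against a floor of 3 counts over the group (edgeR adjusted p = 0.00291). It had 51.1, 26.4, 33.0 and 30.4 CPM with doxycycline, against 27.1, 2.94, 26.1 and 1.38 CPM in DMSO, and did not pass with doxycycline (1.29 ± 0.85 SE, adjusted p = 0.184 in edgeR). In batch 1, acdh-2 had 18.8, 14.9, 15.6 and 10.8 CPM with brequinar and 15.5, 13.1, 15 and 19.2 CPM with dhod-1 RNAi, against 1.66, 1.97, 1.62 and 1.66 CPM in DMSO. Both lay wholly above DMSO, whereas BAY2402234, at 0.773, 0.985, 1.56 and 1.51 CPM, did not pass (-0.52 ± 0.31 SE, adjusted p = 0.175 in edgeR). acdh-2 shares 87 exonic bases with ins-13 on the same strand. acdh-1 fell with BAY2402234, with 306, 60.8, 127 and 171 CPM with BAY2402234, against 539, 561, 631 and 548 CPM in DMSO (-1.78 ± 0.41 SE, adjusted p = 0.00195 in edgeR), and did not pass with brequinar (-0.13 ± 0.40 SE, adjusted p = 0.852 in edgeR) or dhod-1 RNAi (0.08 ± 0.40 SE, adjusted p = 0.876 in edgeR).

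acdh-7, acdh-9, acdh-10, acdh-11 and acdh-13 moved less than acdh-1 did with teriflunomide or BAY2402234. acdh-6 rose with doxycycline, at 11.1, 3.26, 7.50 and 2.83 CPM, against 2.20, 1.64, 0.617 and 1.82 CPM in DMSO. Without DMSO replicate 1 its value was 2.16 (adjusted p = 0.00275 in edgeR). acdh-5 and acdh-8, taken up below, also rose with doxycycline. acdh-10 and its neighbour acdh-7 on chromosome X rose with dhod-1 RNAi. acdh-10 had 159, 152, 199 and 224 CPM with dhod-1 RNAi, against 75.5, 69.2, 70.9 and 86.5 CPM in DMSO, at 1.28 ± 0.13 SE (adjusted p = 8.68e-08 in edgeR), and acdh-7 rose by 1.15 ± 0.13 SE (adjusted p = 2.42e-07 in edgeR). The groups did not overlap for either gene. acdh-11, known to act in adaptation of membrane lipids to heat, rose in 4 comparisons with DMSO, by 0.14 with BAY2402234, 0.25 with dhod-1 RNAi, 0.29 with doxycycline and 0.62 with teriflunomide. The BAY2402234 rise was lost without BAY2402234 replicate 3 or 4 or DMSO replicate 1, 2 or 3 and with no filter on low counts. The doxycycline rise did not pass by DESeq2 or with DESeq2 size factors in edgeR (0.16, adjusted p = 0.175 in edgeR). acdh-9 had 208, 206, 205 and 202 CPM with doxycycline, against 114.5, 63.7, 107 and 56.0 CPM in DMSO, and rose by 1.27 ± 0.19 SE (adjusted p = 7.31e-05 in edgeR), while acdh-13 fell, at -0.73 ± 0.07 SE (adjusted p = 1.63e-06 in edgeR). Here too DMSO replicates 1 and 3 were the higher for acdh-9.

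Among the later mitochondrial steps, ech-1.1 and ech-1.2 encode forms of the trifunctional protein's alpha subunit. ech-1.1 had 11.1, 11.9, 22.8 and 28.2 CPM with dhod-1 RNAi, against 2.11, 1.87, 1.52 and 1.66 CPM in DMSO. It rose by 3.37 ± 0.34 SE (adjusted p = 1.01e-07 in edgeR) without overlap, with replicates 3 and 4 highest, and by 2.68 (adjusted p = 4.3e-06 in edgeR) without them. It rose by 1.15 with brequinar, by 1.02 with BAY2402234 and by 0.63 with doxycycline, and fell with teriflunomide, at -1.64 ± 0.22 SE (adjusted p = 0.000175 in edgeR). The brequinar call was lost without brequinar replicate 3 or 4 or DMSO replicate 3 or 4, the BAY2402234 call without BAY2402234 replicate 4, and the doxycycline call by DESeq2. ech-1.2 moved much less, its log2 fold changes lying between -0.14 with BAY2402234 and 0.39 with teriflunomide, the BAY2402234 value turning to 0.023 without TMM scaling. It rose with brequinar, dhod-1 RNAi and doxycycline and fell with BAY2402234. These calls, other than that with dhod-1 RNAi, were lost with DESeq2 size factors in edgeR. Without DMSO replicate 1 the teriflunomide value of ech-1.2 was 0.376 (adjusted p = 7.24e-05 in edgeR). hacd-1 (WBGene00019978, chromosome V, 1460369 to 1461613), a hydroxyacyl-CoA dehydrogenase, had 27.5, 27.8, 26.5 and 25.4 CPM with doxycycline and 196, 161, 165 and 169.6 CPM with teriflunomide, against 71.5, 54.4, 25.9 and 64.9 CPM in DMSO. Teriflunomide libraries were all higher (1.67 ± 0.24 SE, adjusted p = 0.000294 in edgeR), while doxycycline lowered the gene (-1.02 ± 0.24 SE, adjusted p = 0.00181 in edgeR), 1 DMSO library overlapping. kat-1 had 318, 336, 321 and 296 CPM with doxycycline, against 189.7, 129, 199 and 109.9 CPM in DMSO, and rose by 1.02 ± 0.16 SE (adjusted p = 0.000104 in edgeR). It had 97.3, 92.0, 108 and 96.0 CPM with BAY2402234, against 175, 176, 180.1 and 182 CPM in DMSO, and fell by 0.86 ± 0.09 SE (adjusted p = 2.1e-06 in edgeR), both without overlap. ech-6 followed the same directions, at 0.95 ± 0.29 SE (adjusted p = 0.00874 in edgeR) with doxycycline and -0.80 ± 0.17 SE (adjusted p = 0.00104 in edgeR) with BAY2402234. acaa-2, the other mitochondrial thiolase among the members, rose with teriflunomide at 0.74 ± 0.13 SE (adjusted p = 0.000972 in edgeR) and fell with BAY2402234 at -0.40 ± 0.09 SE (adjusted p = 0.00187 in edgeR).

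**Figure D4:**
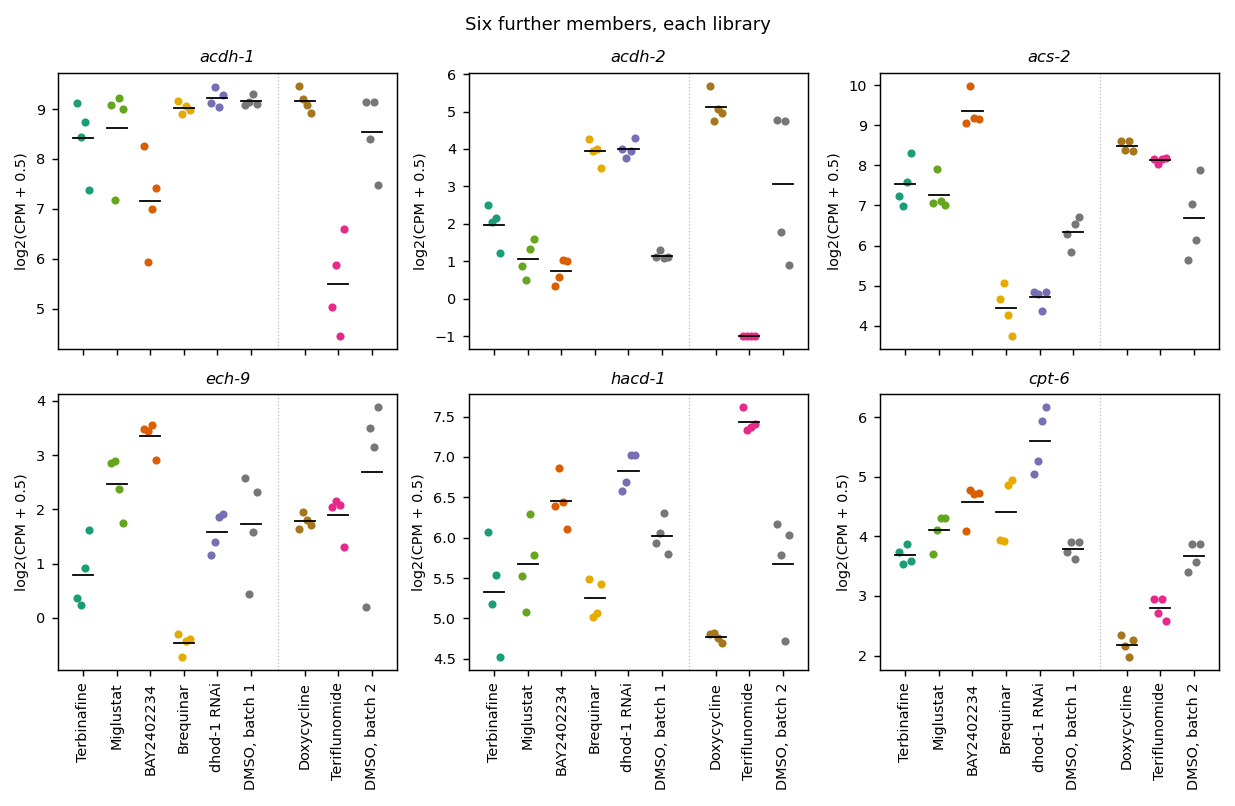
log2(CPM + 0.5) of acdh-1, acdh-2, acs-2, ech-9, hacd-1 and cpt-6 in each of the 36 libraries, with a line at each group's mean (n = 4) and a dotted line between batches. acdh-2 sits at the floor of the axis in the 4 teriflunomide libraries, where it had 0 counts, and acs-2 reaches 1011 CPM in a BAY2402234 library.

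Of the acyl-CoA synthetases, which activate fatty acids, acs-2 changed in 5 of the 7 comparisons with DMSO. acs-2 (WBGene00009221, chromosome V, 15567394 to 15569897) encodes a synthetase linked to mitochondrial oxidation and regulated by NHR-49. It had 531, 1011, 583 and 564 CPM with BAY2402234, 25.0, 33.3, 18.7 and 12.9 CPM with brequinar and 28.2, 27.3, 20.4 and 28.2 CPM with dhod-1 RNAi, against 78.3, 56.4, 91.8 and 104 CPM in DMSO. BAY2402234 libraries were all higher (3.03 ± 0.32 SE, adjusted p = 2.8e-06 in edgeR) and those of brequinar and dhod-1 RNAi all lower, at -1.88 ± 0.32 SE (adjusted p = 0.000532 in edgeR) and -1.67 ± 0.32 SE (adjusted p = 0.000173 in edgeR). It had 392, 335, 386 and 325 CPM with doxycycline and 285, 259.5, 283 and 289 CPM with teriflunomide, against 49.1, 132, 70.5 and 238 CPM in DMSO. Both groups were above DMSO, at 1.56 ± 0.38 SE (adjusted p = 0.0028 in edgeR) and 1.19 ± 0.38 SE (adjusted p = 0.0296 in edgeR), but the teriflunomide call was lost without DMSO replicate 2 or 3 or teriflunomide replicate 1, 2 or 3, where the edgeR adjusted p lay between 0.0509 and 0.0724, and also with no filter on low counts and with the compared groups alone. With terbinafine acs-2 had 151, 127, 192 and 315 CPM and did not pass (1.25 ± 0.30 SE, adjusted p = 0.0544 in edgeR), but it passed by DESeq2, at a minimum count of 50 and without Terbinafine replicate 2.

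The most abundant synthetases fell with doxycycline. acs-13 had 122, 141, 110.3 and 129 CPM with doxycycline, against 569, 662, 754 and 619 CPM in DMSO, and fell by 2.37 ± 0.10 SE (adjusted p = 5.04e-10 in edgeR). acs-4 had 162, 162, 145 and 159.7 CPM with doxycycline, against 434, 415, 521 and 381 CPM in DMSO, and fell by 1.48 ± 0.09 SE (adjusted p = 8.55e-09 in edgeR), and acs-19, related to acetyl-CoA synthetases, fell by 0.83 ± 0.06 SE (adjusted p = 6.08e-08 in edgeR). The groups did not overlap for any of these genes, and the germ line marker sums given above were lower in the same libraries. Their part in these falls was not tested. With teriflunomide acs-19 rose by 0.61 ± 0.06 SE (adjusted p = 1.88e-05 in edgeR). acs-13 fell with dhod-1 RNAi, at -0.36 ± 0.15 SE (adjusted p = 0.0487 in edgeR), with 0.0081 (adjusted p = 0.957 in edgeR) in place of that value when replicates 3 and 4 were left out, and the call was also lost without replicate 3 or 4 alone or any of DMSO replicates 2, 3 and 4, under each other scaling and filter tried in edgeR, and with the compared groups alone. In the RNAi group the germ line sum was 5142, 4911, 3013 and 2340.1 CPM, against 5804 to 6264 CPM in DMSO. acs-1, which activates a branched-chain fatty acid, rose with doxycycline at 1.07 ± 0.24 SE (adjusted p = 0.00158 in edgeR) and teriflunomide at 0.99 ± 0.24 SE (adjusted p = 0.00787 in edgeR), and fell with BAY2402234 at -1.26 ± 0.26 SE (adjusted p = 0.00099 in edgeR). acs-7, which acts in ascaroside modification, rose with miglustat at 0.94 ± 0.21 SE (adjusted p = 0.0389 in edgeR), dhod-1 RNAi at 0.82 ± 0.21 SE (adjusted p = 0.00243 in edgeR) and teriflunomide at 0.97 ± 0.21 SE (adjusted p = 0.00398 in edgeR). The miglustat call was lost without TMM scaling, at a minimum count of 50 and without any of the DMSO libraries or Miglustat replicates 1, 2 and 3, and the dhod-1 RNAi call without replicates 3 and 4, at 0.49 (adjusted p = 0.117 in edgeR). acs-22, needed for the body surface barrier together with acs-20, rose with teriflunomide at 1.06 ± 0.14 SE (adjusted p = 0.000174 in edgeR), while acs-20 fell there at -1.01 ± 0.24 SE (adjusted p = 0.00611 in edgeR). acs-3 had 1.48, 1.65, 2.14 and 0.878 CPM with doxycycline and 0.584, 0.918, 1.43 and 1.09 CPM with teriflunomide, against 4.01, 8.77, 4.52 and 10.9 CPM in DMSO, a fall in both, at -2.19 ± 0.39 SE (adjusted p = 0.000245 in edgeR) and -2.80 ± 0.41 SE (adjusted p = 0.00032 in edgeR).

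Over the 22 synthetases, 1 rose with terbinafine (acs-12) and 1 with miglustat (acs-7). 7 rose and 2 fell with BAY2402234, 0 and 5 with brequinar, 5 and 7 with dhod-1 RNAi, 12 and 4 with doxycycline, and 9 and 2 with teriflunomide. In these 5 comparisons 42.9%, 23.8%, 57.1%, 72.7% and 50% of the synthetases tested changed, in that order. The shares of all genes were 46.8%, 15.7%, 61.4%, 84.9% and 38.8%. With terbinafine and with miglustat 4.76% of synthetases changed, beside 0.898% and 0.581% of all genes. The synthetases' median log2 fold changes were 0.26 with terbinafine, -0.04 with miglustat, 0.37 with BAY2402234, -0.27 with brequinar, 0.22 with dhod-1 RNAi, 1.00 with doxycycline and 0.74 with teriflunomide. Their summed level was 2857 to 2982 CPM with teriflunomide and 1812 to 1881 CPM with doxycycline, against 2086 to 2291 CPM in DMSO. More synthetases rose than fell with doxycycline although their sum was lower, and the abundant acs-13, acs-4 and acs-19 were among the falls.

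Of the 7 ech- genes without a compartment, ech-9 varied most. ech-9 (WBGene00001158, chromosome IV, 10233310 to 10235329) had 10.7, 10.4, 11.2 and 7.02 CPM with BAY2402234 and 0.310, 0.103, 0.246 and 0.257 CPM with brequinar, against 5.47, 0.859, 2.51 and 4.46 CPM in DMSO. BAY2402234 libraries were all higher (1.56 ± 0.40 SE, adjusted p = 0.00384 in edgeR) and brequinar libraries all lower (-3.82 ± 0.56 SE, adjusted p = 9.03e-05 in edgeR). In batch 2 ech-9 had 2.62, 3.36, 2.99 and 2.78 CPM with doxycycline, against 0.651, 10.8, 8.43 and 14.3 CPM in DMSO. It fell with doxycycline, although DMSO replicate 1 lay below every doxycycline library. Without that DMSO library the doxycycline value of ech-9 was -1.94 (adjusted p = 3.09e-06 in edgeR). Its neighbour ech-8 on chromosome IV rose with teriflunomide at 1.62 ± 0.12 SE (adjusted p = 2.47e-06 in edgeR) and doxycycline at 0.92 ± 0.12 SE (adjusted p = 1.52e-05 in edgeR). ech-7 had 74.7, 91.3, 88.9 and 102 CPM with teriflunomide, against 48.6, 30.5, 29.3 and 34.3 CPM in DMSO, and rose by 1.32 ± 0.15 SE (adjusted p = 6.25e-05 in edgeR), with no overlap. ech-3 rose in 4 comparisons, by 0.78 with BAY2402234, 0.89 with dhod-1 RNAi, 0.61 with doxycycline and 1.21 with teriflunomide. ech-3 shares 123 exonic bases with a gene on the other strand.

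Several less studied members rose with doxycycline. acs-15 had 8.05, 14.2, 7.84 and 9.99 CPM with doxycycline, against 4.81, 0.867, 1.18 and 0.640 CPM in DMSO. acs-15 rose by 2.42 ± 0.54 SE (adjusted p = 0.00139 in edgeR) with no overlap, and it rose with dhod-1 RNAi by 1.61 ± 0.28 SE (adjusted p = 4.65e-05 in edgeR), or 1.07 (adjusted p = 0.00675 in edgeR) without replicates 3 and 4. acs-14 rose with dhod-1 RNAi (1.26 ± 0.21 SE, adjusted p = 4.14e-05 in edgeR), doxycycline (1.54 ± 0.11 SE, adjusted p = 6.69e-08 in edgeR) and teriflunomide (1.02 ± 0.11 SE, adjusted p = 4.59e-05 in edgeR). acs-5 had 192, 188, 182 and 174 CPM with doxycycline, against 84.3, 46.7, 44.6 and 49.8 CPM in DMSO, and rose by 1.71 ± 0.20 SE (adjusted p = 6.19e-06 in edgeR), again with no overlap. cpt-5, of the carnitine acyltransferase family, had 28.2, 31.9, 26.8 and 29.2 CPM with doxycycline and 25.3, 47.9, 38.4 and 38.5 CPM with teriflunomide, against 25.8, 2.89, 5.30 and 2.86 CPM in DMSO. cpt-5 rose in both, at 1.66 ± 0.61 SE (adjusted p = 0.0251 in edgeR) and 2.03 ± 0.62 SE (adjusted p = 0.0242 in edgeR), both calls being lost without DMSO replicate 2, 3 or 4, with no filter on low counts and with the compared groups alone, and the teriflunomide call also without teriflunomide replicate 2 or 3. DMSO replicate 1 was near the treated libraries, and without it the teriflunomide value was 3.35 (adjusted p = 6.43e-07 in edgeR). cpt-4 rose with dhod-1 RNAi at 1.4 ± 0.32 SE (adjusted p = 0.00072 in edgeR) and with doxycycline at 1.6 ± 0.30 SE (adjusted p = 0.000432 in edgeR). acdh-12, related to very long-chain acyl-CoA dehydrogenases, moved little, its log2 fold changes lying between -0.29 with doxycycline and 0.33 with dhod-1 RNAi. Even so, it rose with brequinar and dhod-1 RNAi and fell with BAY2402234 and doxycycline. The BAY2402234 call was lost without TMM scaling.

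A group of low members, acs-6, acs-10, acs-18, acdh-5 and acdh-8, was picked out after its values were seen, and so carries no test as a group. acs-10 had 30.5, 47.3, 28.5 and 33.6 CPM with doxycycline and 13.1, 20.4, 20.2 and 17.6 CPM with teriflunomide, against 19.5, 2.31, 1.95 and 1.87 CPM in DMSO. DMSO replicate 1 was near the teriflunomide libraries and the other 3 were far lower. All 5 genes rose with doxycycline and fell with dhod-1 RNAi by edgeR, although acdh-8 with doxycycline lost its call without DMSO replicate 2 or 3 or doxycycline replicate 2, with no filter on low counts and with the compared groups alone. Without dhod-1 RNAi replicates 3 and 4 together, the RNAi calls of all but acs-10 were lost, and that of acs-6 also without replicate 4 or DMSO replicate 1. acs-18 stood at 2.49 ± 0.74 SE (adjusted p = 0.00876 in edgeR) with doxycycline and -2.74 ± 0.85 SE (adjusted p = 0.00842 in edgeR) with dhod-1 RNAi. Without DMSO replicate 1 the doxycycline values of the 5 genes lay between 3.48 for acdh-8 and 4.33 for acs-18. The summed level of 6 sperm genes was 182 to 293 CPM with doxycycline, against 144, 21.9, 19.6 and 19 CPM in DMSO, and no sperm gene was at 0. With dhod-1 RNAi it was 7.54 to 10.3 CPM, against 9.65 to 25.2 CPM in DMSO. The part of sperm content in these members was not tested.

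**Figure D5:**
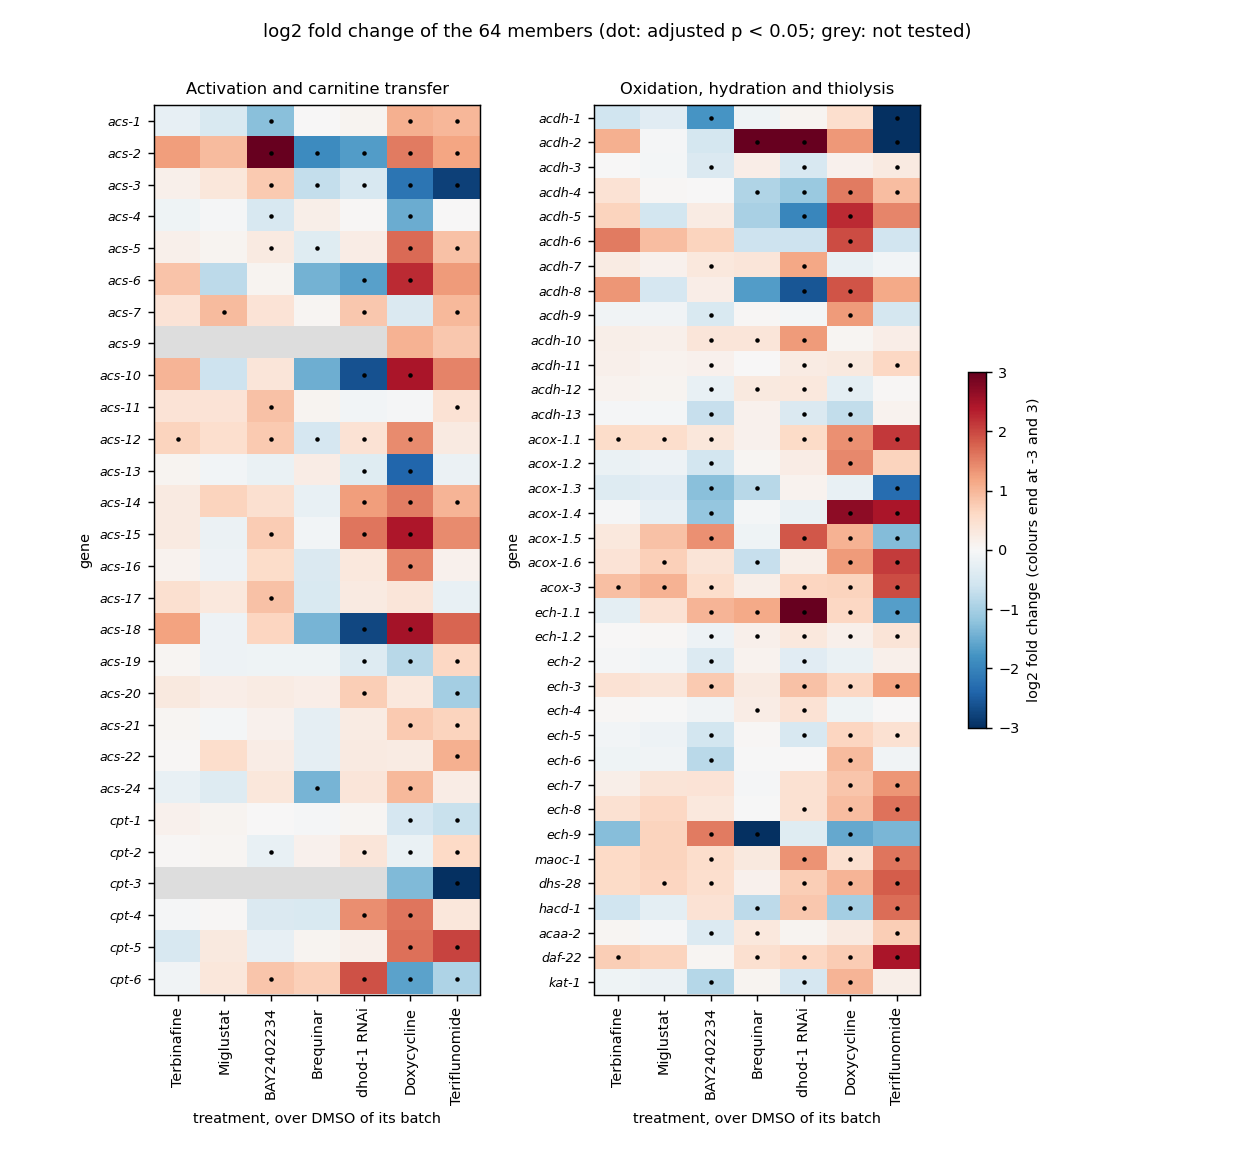
log2 fold change of the 64 members over the DMSO group of the same batch, by step, in 7 comparisons; colours end at -3 and 3, a dot marks an adjusted p below 0.05 and grey marks a gene not tested. Few dots stand in the terbinafine and miglustat columns, where 4 and 5 members changed, and acs-2 has opposite colours with BAY2402234 and brequinar.

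Treatments were also compared directly within a batch. BAY2402234 and brequinar, given at the same 500 µM, differed in 46 members, 26 higher and 20 lower with BAY2402234, where 63.4% of all genes differed, 33.2% higher and 30.2% lower. acs-2 differed by 4.90 ± 0.35 SE (adjusted p = 5.94e-09 in edgeR) and ech-9 by 5.39 ± 0.54 SE (adjusted p = 6.59e-08 in edgeR), and neither overlapped. acdh-2 was lower with BAY2402234, at -3.64 ± 0.30 SE (adjusted p = 7.12e-09 in edgeR), as were acdh-1, at -1.65 ± 0.41 SE (adjusted p = 0.00175 in edgeR), and kat-1, at -0.93 ± 0.09 SE (adjusted p = 5.6e-08 in edgeR). acox-1.6 and hacd-1 were higher with BAY2402234, at 1.07 ± 0.16 SE (adjusted p = 9.64e-06 in edgeR) and 1.22 ± 0.26 SE (adjusted p = 0.000568 in edgeR). Doxycycline and teriflunomide, at doses of 50 and 250 µM, differed in 42 members, 17 higher and 25 lower with doxycycline, where 74.2% of all genes differed, 36.3% higher and 37.9% lower, and the median of all genes was 0.22. Without TMM scaling the split was 21 and 21. daf-22 was lower with doxycycline, at -1.70 ± 0.07 SE (adjusted p = 5.71e-10 in edgeR), as were hacd-1, at -2.69 ± 0.25 SE (adjusted p = 9.96e-07 in edgeR), and acs-13, at -2.21 ± 0.10 SE (adjusted p = 1.02e-09 in edgeR). acdh-1 was higher by 3.48 ± 0.50 SE (adjusted p = 6.39e-05 in edgeR), and acdh-2 was at least 876-fold higher in CPM against the floor of 3 counts. Terbinafine at 31.5 µM and miglustat at 250 µM differed in 2 members, where 2.96% of all genes differed, 1.44% higher and 1.52% lower. acdh-2 was higher with terbinafine (1.1 ± 0.29 SE, adjusted p = 0.039 in edgeR), at 5.16, 3.63, 3.96 and 1.83 CPM, against 1.33, 0.914, 2.03 and 2.51 CPM with miglustat, the groups overlapping. ech-9 was lower with terbinafine (-1.96 ± 0.44 SE, adjusted p = 0.0132 in edgeR), at 0.782, 0.674, 1.39 and 2.59 CPM, against 6.74, 6.95, 4.70 and 2.87 CPM with miglustat, without overlap. The acdh-2 difference was lost without Miglustat replicate 1, 2 or 3 or Terbinafine replicate 1, 2 or 3 and with the compared groups alone, and the ech-9 difference without Terbinafine replicate 1 (edgeR adjusted p = 0.0628).

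Genes that act beside the members were followed in lists from general knowledge. Of 11 peroxisome biogenesis genes (prx-), 8 rose and 0 fell with teriflunomide, at a median of 0.82, where 38.8% of all genes changed. 8 rose and 3 fell with dhod-1 RNAi, where 61.4% of all genes changed, 7 and 3 with BAY2402234, where 46.8% did, and 6 and 2 with doxycycline, where 84.9% did. prx-5, the import receptor for peroxisomal enzymes, rose with teriflunomide at 0.97 ± 0.11 SE (adjusted p = 7.9e-05 in edgeR) and with doxycycline at 1.06 ± 0.11 SE (adjusted p = 2.86e-06 in edgeR). With brequinar 1 rose. With terbinafine and miglustat 0 changed by edgeR, where 1 and 8 had an unadjusted p below 0.05 and DESeq2 called 0 and 1. The propionate shunt genes hphd-1, hach-1 and alh-8, which act after acdh-1 and ech-6, all rose with doxycycline, hphd-1 by 1.54 ± 0.45 SE (adjusted p = 0.00727 in edgeR), although the hach-1 call was lost by DESeq2, with DESeq2 size factors in edgeR, with no filter on low counts and without DMSO replicate 2 or 4 or doxycycline replicate 1. In that comparison 84.9% of all genes changed, and all 4 genes of the vitamin B12-dependent route rose as well. acdh-1 itself did not pass with doxycycline, and without DMSO replicate 1 it stood at 0.68 (adjusted p = 0.241 in edgeR). With BAY2402234, where acdh-1 and ech-6 fell, hphd-1 fell, at -1.19 ± 0.30 SE (adjusted p = 0.00371 in edgeR), and so did hach-1, at -0.73 ± 0.13 SE (adjusted p = 0.000166 in edgeR). Of the 4 vitamin B12-route genes, 2 rose with BAY2402234, pcca-1 and mce-1, and 0 fell. With teriflunomide 0 of the 3 passed by edgeR, although 2 had an unadjusted p below 0.05 and 2 passed by DESeq2, while all 4 genes of the vitamin B12-dependent route rose, pcca-1 by 0.60 ± 0.07 SE (adjusted p = 6.4e-05 in edgeR). The lipase gene lipl-1 rose with BAY2402234 by 2.09 ± 0.32 SE (adjusted p = 6.79e-05 in edgeR) and fell with brequinar, at -1.83 ± 0.35 SE (adjusted p = 0.00122 in edgeR). nhr-49, a regulator of acs-2, rose with dhod-1 RNAi by 0.28 ± 0.06 SE (adjusted p = 0.000649 in edgeR), where acs-2 fell, and fell with doxycycline, at -0.56 ± 0.05 SE (adjusted p = 5.7e-07 in edgeR), where acs-2 rose.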

How the data were processed

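Whole-worm RNA of 36 libraries was sequenced on a BGISEQ-500. The submitters' processing notes name FastQC, STAR 2.7.3a, DESeq2 1.40.2 and the genome build WBcel235. The authors deposited raw counts per gene. The counting tool, strand setting and annotation release are not given in the sources used here.

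The deposited counts were fitted per batch with edgeR 4.0.16 (R 4.3.3, robust quasi-likelihood F test, TMM scaling, filterByExpr with a minimum count of 10), with no replicate term. Benjamini-Hochberg adjustment covered the 15142 genes tested in batch 1 and the 15695 in batch 2. The SE is the size of the log2 fold change divided by the square root of F. DESeq2 1.42.0 and other settings were alternatives. The scripts were tested on simulated data. Positions and exon lengths came from the WBcel235 annotation. Symbols were found for 25676 of the 27782 genes.

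The members and lists were chosen with earlier results of these data known. Members named were called genes averaging at least 5 CPM in a compared group, at most 8 rises and 8 falls a comparison by size, with a panel of 20 members and at most 2 genes of a partner list by p. Other genes named were chosen after their values were seen. Replicate numbers did not consistently pair the libraries: the deviations of same-numbered libraries correlated between -0.64 and 0.69, in no comparison all above 0.1. No pair of libraries in a group looked like repeats of one library, chi-square per degree of freedom being at least 3.52. The labels call the replicates biological.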

Additional observations from a re-analysis of the deposited data

Results flagged for a closer look

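Within a group of 4 libraries, a library was picked out when its gap to the nearest other, divided by the whole range of the group, was above the 95% critical value of Dixon's test, on log2(CPM + 0.5). This held for 14 of 180 member-and-group pairs, and chance alone gives about 1 in 20. Miglustat replicate 2 was picked out most often.

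acs-2 stood high in miglustat replicate 2 (gap ratio 0.897) and BAY2402234 replicate 2 (0.853), and low in dhod-1 RNAi replicate 3 (0.904). In miglustat replicate 2, acdh-1 (0.892), kat-1 (0.878) and acox-1.4 (0.869) were low. cpt-1 was low in miglustat replicate 3 (0.907). cpt-3 was at 0 in brequinar replicate 4 (0.962). ech-9 was low in BAY2402234 replicate 4 (0.847) and teriflunomide replicate 4 (0.869). acox-1.4 was high in dhod-1 RNAi replicate 4 (0.840), and maoc-1 in BAY2402234 replicate 3 (0.835). In replicate 2 of the batch 1 DMSO group, acdh-2 was high (0.876) and dhs-28 low (0.975).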

How the results depend on the processing

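Some alternatives were chosen after seeing the data: leaving out dhod-1 RNAi replicates 3 and 4 together, no TMM scaling for the counts of members changed, and DESeq2 or left-out libraries for the compartment medians. Replicate numbers did not consistently pair the libraries: over the 10 comparisons, 11 of 40 same-numbered pairs were the best match. Between BAY2402234 and brequinar the same-numbered correlations were 0.64, 0.29, -0.04 and 0.45, so this check cannot exclude pairing. For terbinafine, 8 members changed by DESeq2 in place of 4, and 3 to 7 with a library left out. For miglustat, in place of 5, the count was 11 by DESeq2, 8 with the replicate block, 8 with the compared groups alone, 1 without TMM scaling, 1 at a minimum count of 50, and 1 to 6 with a library left out. For brequinar it was 9 to 21 with a library left out, in place of 18: 9 without brequinar replicate 3, 10 without replicate 4, and 11 and 9 without DMSO replicates 1 and 3. For dhod-1 RNAi it was 24 without replicates 3 and 4, in place of 40. Terbinafine against miglustat gave 5 by DESeq2, 5 with the replicate block, 1 with the compared groups alone and 0 to 3 with a library left out, in place of 2. Over all genes, DESeq2 called 241 for terbinafine and 264 for miglustat, in place of 136 and 88, and 842 between them, in place of 448. The peroxisomal minus mitochondrial median, with a library left out, lay between 0.41 and 0.53 for BAY2402234, 0.27 and 0.49 for dhod-1 RNAi, 0.61 and 0.78 for doxycycline, and 1.68 and 1.87 for teriflunomide. Among members the text names, values that turned sign were ech-1.2 with BAY2402234 (0.023 without TMM scaling), acs-13 with dhod-1 RNAi (0.0081 without replicates 3 and 4) and cpt-2 with doxycycline (0.038 at a minimum count of 50); acdh-3 between doxycycline and teriflunomide also did (0.013 without TMM scaling and 0.079 at a minimum count of 50). The cause was not tested.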

Other observations

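Lipases release the fatty acids that the synthetases activate. Of 8 lipolysis genes, 7 of them tested in batch 1, those that rose and fell were 5 and 1 with BAY2402234, 0 and 1 with brequinar, 3 and 1 with dhod-1 RNAi, 2 and 5 with doxycycline and 3 and 3 with teriflunomide. The shares of all genes changed in those comparisons were 46.8%, 15.7%, 61.4%, 84.9% and 38.8%, in the same order. Of 10 genes for regulators of fat oxidation, they were 3 and 3 with BAY2402234, 1 and 0 with brequinar, 7 and 1 with dhod-1 RNAi, 6 and 3 with doxycycline and 2 and 0 with teriflunomide. With terbinafine 0 genes of either list changed by edgeR, where 1 and 3 had an unadjusted p below 0.05 and DESeq2 called 0 and 0. With miglustat 0 changed by edgeR, where 2 and 3 had an unadjusted p below 0.05 and DESeq2 called 1 and 1. All 5 muscle markers rose with doxycycline and with teriflunomide, where 84.9% and 38.8% of all genes changed. The same 5 fell with brequinar and with dhod-1 RNAi, where 15.7% and 61.4% of all genes changed. The part of muscle content in the members' changes in those comparisons was not tested.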
